A study of Mus musculus with 2 samples.

Results

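The ribosomal protein genes examined here are the autosomal protein-coding mouse genes whose symbol is Rpsa, Rplp0, Rplp1 or Rplp2, or starts with Rpl or Rps followed by a digit, without the Rps6k kinase genes. The rule found 87 of the 20560 autosomal protein-coding genes used. They were 30 genes of the small ribosomal subunit, 40 of the large subunit, 3 of the P stalk and 13 paralogues or copies. The remaining gene, Rps19bp1, encodes a protein that binds a ribosomal protein and is in the set by its symbol only. The 4 X-linked genes of the same symbols, Rpl10, Rpl36a, Rpl39 and Rps4x, fall outside the rule.

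The study mapped 5-hydroxymethylcytosine (5hmC) in prospermatogonia of WT mice, germ cells of the testis before birth, at E17.5, by 5hmC-Seal, in which 5hmC is tagged with a biotin-bearing glucose and pulled down on streptavidin. DNA came from 30000 frozen cells of several embryos, and 50 ng of it was used; how the cells were isolated is not stated. Batch 1 holds both libraries, the captured one and its input, and all values come from the list of 108395 peaks of the captured library, the input being not analysed here. With 1 captured library there is no replicate and no test. Each range in brackets after a share is an exact Clopper-Pearson 95% interval that covers counting error only. Neighbouring genes and copies of a gene are not independent.

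Ribosomal proteins assemble with ribosomal RNA into the small subunit, which reads the mRNA, and the large subunit, which joins amino acids. Their genes are short and strongly transcribed in nearly all cells, with promoters rich in CpG, and several carry small nucleolar RNAs (snoRNAs) in introns. Their mRNAs have been copied back into the genome many times, so many of them have near-identical processed pseudogenes. 5hmC is made from 5-methylcytosine by TET enzymes, and in many tissues it lies in gene bodies rather than at CpG-rich promoters.

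A 5hmC peak overlapped the span of 44 of the 87 genes or the 1 kb on either side of it, a share of 50.6% (39.6 to 61.5). The share over all autosomal protein-coding genes was 66.4%, but those genes had a median span of 17.6 kb, against 3.18 kb for ribosomal protein genes. Among the 7279 protein-coding genes with a span of up to 10 kb, 37.3% had a peak. Within the same limit of span, 43 of 85 ribosomal protein genes had one (50.6%; 39.5 to 61.6). The peak lay at least partly inside the span in 39 genes (44.8%; 34.1 to 55.9). No peak was shared by any pair of members, and 6 members had more than 1 peak. A gene and its processed copies share sequence, and how reads with several matches were handled is not stated, so a peak on one may hold reads of the other; this was not tested.

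Strong peaks were few in number. A peak is called strong here when its fold enrichment, the authors' ratio of captured signal to background, is at least 5.43, which is the top 10% of all peaks. Rpsa, Rpl8, Rpl7, Rpl37rt, Rps2 and Rpl28 had such a peak, 6 of 87 genes or 6.90% (2.57 to 14.4). Over all protein-coding genes the share was 7.98%, and over those with a span of up to 10 kb it was 1.29%. Within the same limit of span, 6 of 85 ribosomal protein genes had one (7.06%; 2.63 to 14.7). The same 6 genes had a peak with a −log10 q of at least 5, against 9.61% of all protein-coding genes and 1.83% of those up to 10 kb. Among members with a peak, the median of the highest fold was 3.42, against 3.42 in protein-coding genes of up to 10 kb with a peak and 3.77 in all protein-coding genes with a peak. The median was thus that of shorter genes, while 6 members were in the top class of peaks.

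**Figure D1:**
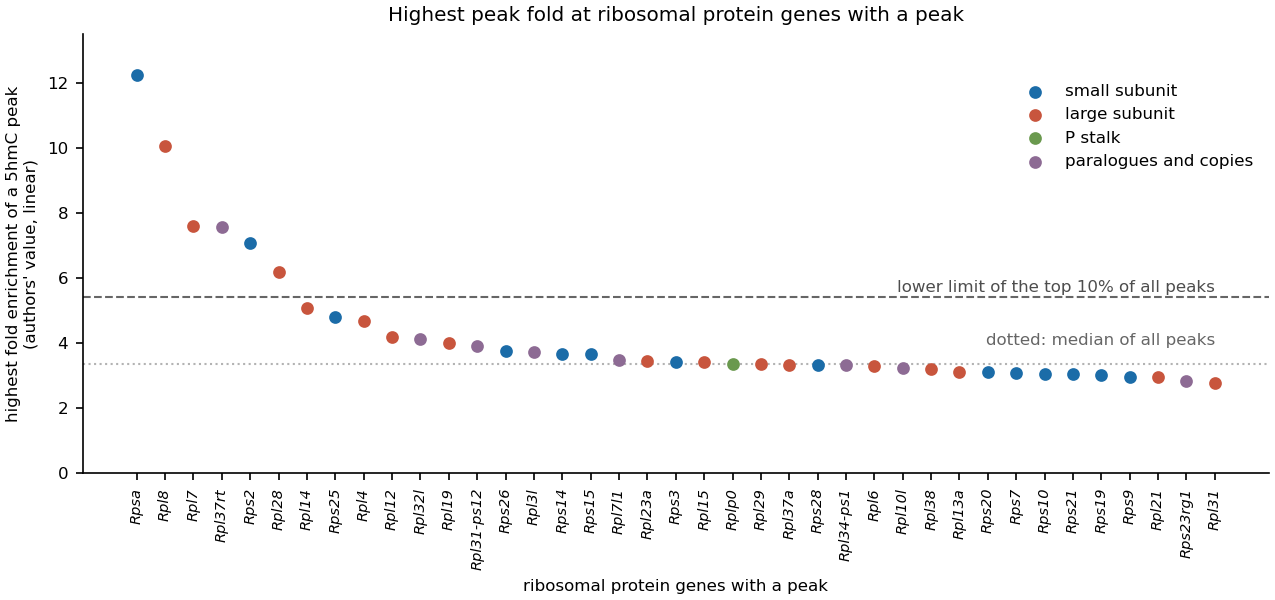
Highest fold enrichment (linear, the authors' value) at 39 of the 44 ribosomal protein genes with a peak, coloured by subunit; the dashed line is the fold of 5.43 that bounds the top 10% of all peaks, and the dotted line is the median of all peaks, 3.35. 6 genes stand above the dashed line and 24 of those plotted lie between 3 and 4.

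Rpsa, which encodes the small-subunit protein also known as the laminin receptor, had the highest fold of the set. Its peak ran from 120129544 to 120131527 on chromosome 9 (build mm10), 1984 bp wide, with a fold of 12.2 and a −log10 q of 21.3. It lay wholly within the gene (120127766 to 120132369), covered 43.1% of the span and held the snoRNA genes Snora62 and Gm26448.

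Rpl8 encodes a large-subunit protein close to the centre where peptide bonds form. Its peak on chromosome 15, from 76904300 to 76906753, had a fold of 10.1 and a −log10 q of 16.9. It covered 89.8% of the gene, the highest share of any member, and ran past 1 end of the span.

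The peak of Rpl7, a large-subunit gene, had a fold of 7.60 and was 490 bp wide, on chromosome 1 from 16103168 to 16103657 (15.6% of the gene). The small-subunit gene Rps2, whose protein lies near the channel through which mRNA enters, had a fold of 7.07 over 390 bp on chromosome 17 from 24720299 to 24720688 (10.2% of the gene). Both peaks were narrow and lay inside the gene. The peak of the large-subunit gene Rpl28 crossed an end of the gene at fold 6.18, on chromosome 7 from 4794322 to 4794671, 350 bp that covered 14.3% of the gene. Rpl37rt, by its symbol a retrotransposed copy of Rpl37, had 3 peaks. The strongest had a fold of 7.58 over 296 bp on chromosome 5, from 115103263 to 115103558. Another touched only a flank, overlapping the gene Acads, and the peaks inside Rpl37rt covered 24.6% of its span. The parent gene Rpl37 had no peak.

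The next values were lower and close together. Rpl14, of the large subunit, had a fold of 5.08 from a peak of 321 bp on chromosome 9, from 120574114 to 120574434, that covered 10.2% of the gene. Rps25, whose protein is needed for translation from several viral internal entry sites, had 4.79 over 404 bp on chromosome 9, from 44409211 to 44409614, or 15% of the gene. Rpl4, which lines the tunnel through which the new protein leaves, had a peak of fold 4.68 and 1492 bp on chromosome 9 from 64176984 to 64178475. A second peak in Rpl4 had a fold of 3.09, and together they covered 45.0% of the gene. The peak counted for Rpl12, at the base of the P stalk, had a fold of 4.19 over 1520 bp on chromosome 2, from 32959423 to 32960942. It lay wholly before the gene, within the neighbouring gene Lrsam1, and covered none of the span of Rpl12. These peaks were all below the top class, and Rpl14, at 5.08, was the nearest under its bound of 5.43, with Rpl28, at 6.18, the nearest above.

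**Figure D2:**
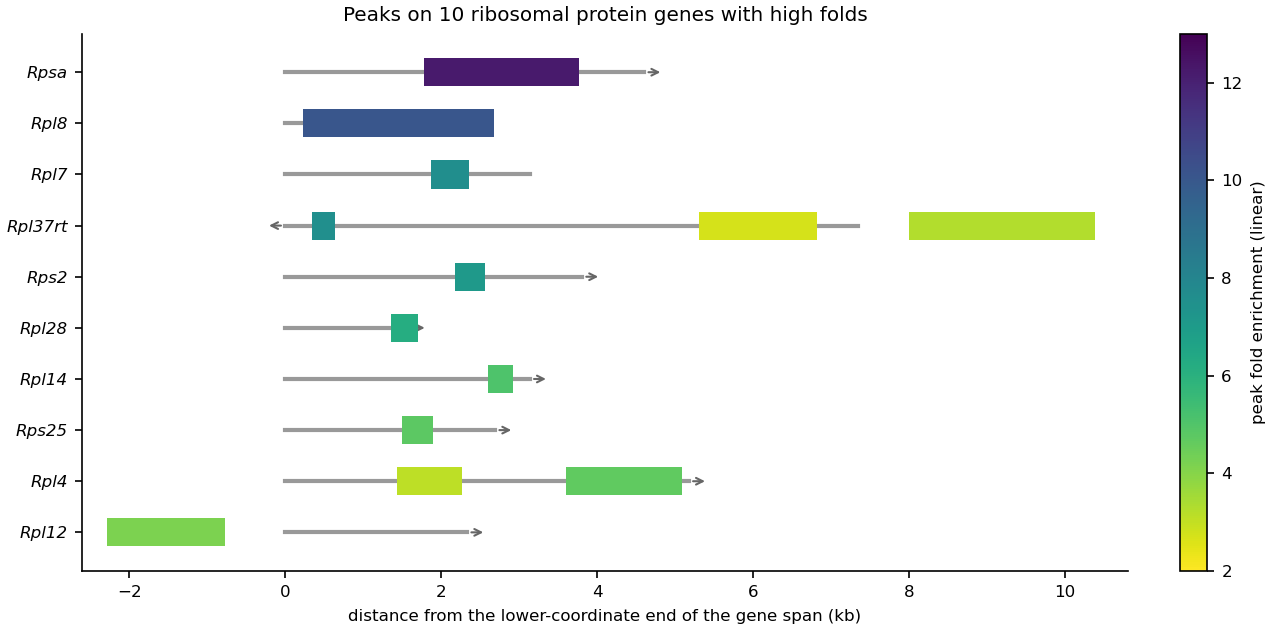
Peaks (coloured bars, by fold on a linear scale) on the spans (grey lines) of 10 of the 12 ribosomal protein genes with the highest folds, plotted as distance in kb from the lower-coordinate end of each span; arrows give the direction of transcription where it is listed. Rpl8 is 89.8% covered, the peak of Rpl12 lies outside the gene, and the peaks of the other genes leave the start of the gene free where a start is listed.

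Of the 30 small-subunit genes 18 had a peak (60.0%; 40.6 to 77.3), and of the 40 large-subunit genes 17 had one (42.5%; 27.0 to 59.1). The intervals overlap. Over all protein-coding genes the share was 66.4%, and over those up to 10 kb it was 37.3%. Strong peaks were found at 2 small-subunit (6.67%) and 3 large-subunit genes (7.5%), against 7.98% of all protein-coding genes and 1.29% of those up to 10 kb.

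In the small subunit the other folds given here were low. Rps26 had 3.75, Rps14 3.67, Rps15 3.65, Rps3 3.43 and Rps28 3.32. Rps20 had 3.10, Rps7 3.07, Rps10 3.06, Rps21 3.05 and Rps19, whose human counterpart is mutated in Diamond-Blackfan anaemia, 3.02. Rps9 had 2.97. Within this group the peak covered 46.9% of Rps15 and 35.5% of Rps9, while those counted for Rps14, Rps7 and Rps21 touched only a flank, that of Rps14 on the pseudogene Gm8731 and that of Rps21 in the gene Cables2.

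In the large subunit Rpl19 had 3.997, Rpl23a 3.44, Rpl15 3.41, Rpl29 3.35, Rpl37a 3.33 and Rpl6 3.30. Rpl38, needed in mice for normal patterning of the skeleton, had 3.21, Rpl13a 3.11, Rpl21 2.95 and Rpl31 2.76. The peak of Rpl13a covered 43.6% of the gene, and that of Rpl23a touched only a flank. In the P stalk, which recruits elongation factors, Rplp0 had a peak of fold 3.36 over 27.3% of the gene, and Rplp1 and Rplp2 had none.

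No peak was called at 43 genes. In the small subunit these were Rps3a1, Rps6, the substrate of the S6 kinases, Rps12, Rps13, Rps15a, Rps16, Rps18, Rps23, Rps24, Rps27, Rps27a and Rps29. In the large subunit they were Rpl3, Rpl7a, Rpl9, Rpl10a, Rpl13, Rpl17, Rpl18, Rpl22, Rpl23, Rpl24, Rpl26, Rpl27, Rpl27a, Rpl30, Rpl32, Rpl34, Rpl35, Rpl35a, Rpl36, Rpl37, Rpl41, and Rpl5 and Rpl11, which join ribosome assembly to the p53 response. The others were Rplp1, Rplp2, Rpl22l1, Rpl36al, Rpl39l, Rps27l, Rps27rt and Rps19bp1. The depth of the library is unknown, so a gene without a call is not shown to lack 5hmC.

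Few peaks lay at the starts of the genes, and the share was close to that of protein-coding genes in general. RefSeq promoter windows, from 250 bases before to 50 after an annotated start (build GRCm38.p6, the assembly of mm10), were listed for 66 of the 87 genes. A peak overlapped a window of 2 genes (3.03%; 0.369 to 10.5), against 4.64% of all protein-coding genes with a window and 4.59% of those up to 10 kb. Both were copies or paralogues, Rpl3l and Rps23rg1. None of the 53 genes left after the paralogues and Rps19bp1 were set aside had one (0%; 0 to 6.72), an interval that includes the background. Of the 44 genes with a peak, 31 had a listed window. Rpl8 and Rpl7, both with a strong peak, had none listed and are not in these counts.

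The windows of these 53 genes were rich in CG, with a median of 22 CG dinucleotides per window and a range from 8 to 39, against a median of 14 over all protein-coding genes. The letters CCGGAAG, the core bound by ETS factors such as GABP, occurred on either strand in a window of 23 of these genes (43.4%), against 13.3% of all protein-coding genes with a window. AAGATGGC, the core bound by YY1, occurred in 5 (9.43%), against 3.59%. The motifs were searched as exact letters on both strands; they are descriptions of the windows and were not tied to the peaks.

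The promoter sequences that follow, from RefSeq on build GRCm38.p6, are shown so that starts with and without a peak can be read side by side: the genes with the 3 highest folds among those with a listed window and outside the paralogues, all free of a peak at the start, and then both windows under a peak. Each runs 5′ to 3′ from 180 bases before the start to 20 bases from it on, with CG in capitals.
Rpsa, chr9:120127586-120127785, plus strand: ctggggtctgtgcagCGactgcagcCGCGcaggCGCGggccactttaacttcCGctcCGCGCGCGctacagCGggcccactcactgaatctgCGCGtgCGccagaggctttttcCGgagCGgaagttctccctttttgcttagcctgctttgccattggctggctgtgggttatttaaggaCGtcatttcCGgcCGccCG
Rps2, chr17:24719883-24720082, plus strand: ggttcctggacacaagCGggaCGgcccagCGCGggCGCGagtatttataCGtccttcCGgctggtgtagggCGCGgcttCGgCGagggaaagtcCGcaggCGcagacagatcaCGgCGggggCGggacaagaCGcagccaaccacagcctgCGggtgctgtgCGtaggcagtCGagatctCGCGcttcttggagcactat
Rpl28, chr7:4792785-4792984, plus strand: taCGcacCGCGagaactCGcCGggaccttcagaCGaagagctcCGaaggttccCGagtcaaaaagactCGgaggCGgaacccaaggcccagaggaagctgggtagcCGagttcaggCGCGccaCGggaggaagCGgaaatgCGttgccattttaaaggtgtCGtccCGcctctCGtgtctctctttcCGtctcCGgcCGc
Rpl3l, chr17:24732505-24732704, plus strand: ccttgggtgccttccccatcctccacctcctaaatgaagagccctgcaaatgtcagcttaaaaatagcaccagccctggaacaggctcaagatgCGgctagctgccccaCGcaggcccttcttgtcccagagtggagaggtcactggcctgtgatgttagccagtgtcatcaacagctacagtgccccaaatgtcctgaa
Rps23rg1, chr8:3567818-3568017, plus strand: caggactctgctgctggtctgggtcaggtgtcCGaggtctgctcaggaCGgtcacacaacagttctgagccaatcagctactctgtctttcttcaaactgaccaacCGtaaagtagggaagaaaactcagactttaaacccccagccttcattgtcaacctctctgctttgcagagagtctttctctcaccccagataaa

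The printed stretch held 20 CG in Rpsa, 23 in Rps2 and 22 in Rpl28, with 0 bases under a peak in each. It held 2 CG in Rpl3l, whose internal start lies in a peak that spans all 200 bases, and 3 in Rps23rg1, with 169 bases under its peak. That peak of Rps23rg1 was a weak call, with a −log10 q of 1.09, near the lowest of the list, 1.01. The 5 printed stretches were picked by peak. The windows of Rpl32l, with 3 CG, and Rpl31-ps12, with 4, were not under a peak. Peaks did begin 57 bp and 62 bp after these starts, just past the windows. A link between CG and peaks was not tested.

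Distances to the nearest listed start placed most peaks downstream. Over the 27 peaks of the genes other than paralogues, 22 lay more than 500 bp downstream (81.5%; 61.9 to 93.7) and 4 more than 500 bp upstream. The peak of Rps2 was the nearest, 236 bp downstream, and the next on that side was that of Rps3 at 774 bp. The peak of Rpsa began 1778 bp from the start, that of Rpl14 at 2597 bp and that of Rpl28 at 1357 bp. In protein-coding genes up to 10 kb, 80.9% (79.4 to 82.3) of 2925 peaks lay more than 500 bp downstream, and the start itself lay in 7.93% (6.98 to 8.97) of the peaks, against 0 of 27 here (0 to 12.8). The downstream share was close to that of short genes in general.

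Along the gene, peaks covered on average 0% of the first of 10 equal parts of the span, and of the 3 nearest steps of 250 bp before it, in these 53 genes. Coverage was 1.26% in the second of the 10 parts and reached 16.5% in the eighth, before 7.79% in the last. In protein-coding genes up to 10 kb, the means were 3.72% in the first part, 9.99% in the eighth and 7.81% in the last. Both profiles thus climbed toward the later part of the gene, and that of ribosomal protein genes started lower and reached higher. The difference has no test in 1 library. For 7 of these 53 genes no listed start lies within 50 bp of the span's end, Rps2 among them, so their place in the profile is shifted.

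**Figure D3:**
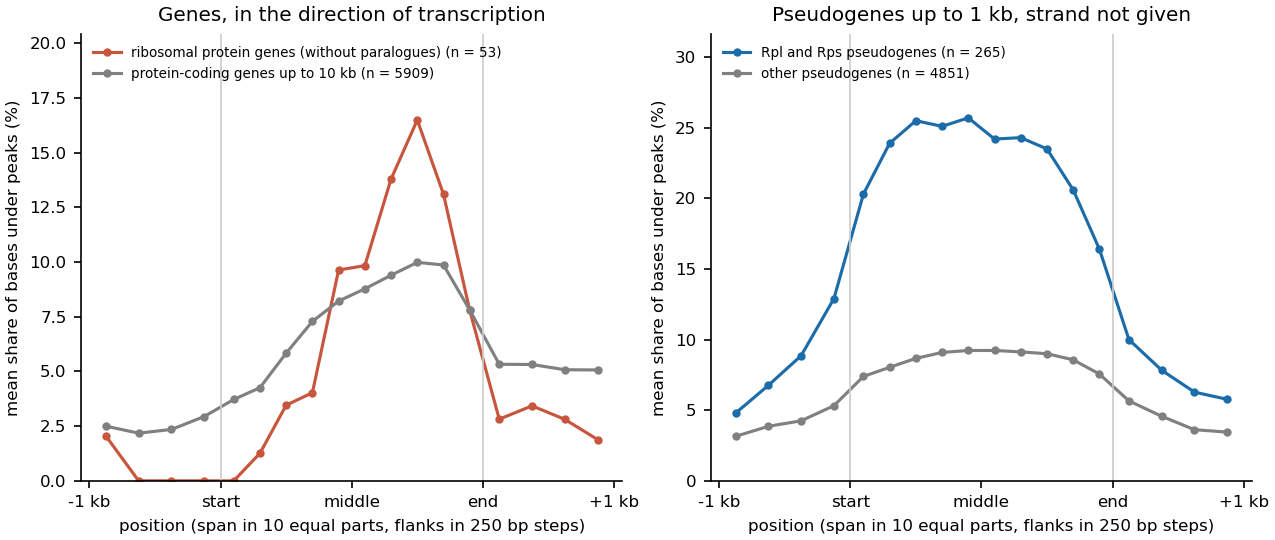
Mean share of bases under peaks (%), in 10 equal parts of the span and in steps of 250 bp over 1 kb on each side: left, 53 ribosomal protein genes without paralogues, and 5909 protein-coding genes up to 10 kb, in the direction of transcription, and right, 265 Rpl and Rps pseudogenes and 4851 other pseudogenes, all up to 1 kb. Ribosomal protein genes are at 0% around the start and at 16.5% in the eighth part, and their pseudogenes reach 25.7% in the middle.

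In all, 28 members held 57 annotated snoRNA genes in their span, and all of these were genes other than paralogues. A peak was called at 13 of them (46.4%; 27.5 to 66.1), against 23 of the 45 such genes without a snoRNA (51.1%; 35.8 to 66.3). Over all protein-coding genes the share with a peak was 66.4%, and over those up to 10 kb it was 37.3%. In 8 of the 28 genes a peak overlapped a snoRNA gene, among them Rpsa, Rpl4, Rpl13a, Rps3 and Rps20. That count was not made for other genes that hold a snoRNA, so it has no background. In Rpl13a the 1389 bp peak overlapped Snord32a, Snord33, Snord34 and Snord35a, and in Rps3 it overlapped Snord15a. Rps2 hosts 2 snoRNA genes and its peak held neither.

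Among the 13 paralogues and copies 8 had a peak (61.5%; 31.6 to 86.1). This interval includes 66.4%, the share of all protein-coding genes, and 37.3%, that of those up to 10 kb. In all 8 a peak lay at least partly in the span. The highest fold of each was 7.58 at Rpl37rt, 4.11 at Rpl32l, 3.91 at Rpl31-ps12 and 3.74 at Rpl3l. Rpl7l1 had 3.49, Rpl34-ps1 3.32, Rpl10l 3.23 and Rps23rg1 2.83. The value of Rpl31-ps12 came from a peak in its flank, and its peak inside the span had 3.52. Short copies were covered over much of their length: 67.1% of Rpl34-ps1, 64.5% of Rpl32l, 59.9% of Rpl31-ps12 and 58.3% of Rpl10l. Cover of this size is usual on short spans. Among pseudogenes of other symbols up to 1 kb with a peak in the span, the median was 66.0%. Rpl31-ps12 and Rpl32l lie in the protein-coding genes Spag6l and Map7.

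Rpl10l is an autosomal copy of the X-linked Rpl10 and is needed for male meiosis in mice. Its peak on chromosome 12, from 66283739 to 66284334, had a −log10 q of 1.64, a weak call, and began 67 bp after the start. Rpl39l, the paralogue of X-linked Rpl39 that is used in the testis, had no peak. Rpl3l, used in striated muscle, was 34.3% covered, and its parent Rpl3 had no peak.

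Annotated autosomal pseudogenes with the same symbol stems numbered 286, of 9225 autosomal pseudogenes. A peak within 1 kb was found at 109 of them, 38.1% (32.5 to 44.0). This was 12.5 percentage points below the share of the genes, with a range of 0.0344 to 24.7. That range was combined from the intervals of both shares and is not itself an exact interval. The spans differ, with a median of 3.18 kb in the genes and 0.54 kb in the pseudogenes, and the part of span in this difference was not tested. With peaks of a −log10 q of at least 5 alone, the genes were at 6.90% and the pseudogenes at 8.39%, a difference of -1.50 points, so the order of the shares depends on the weak peaks. Over all autosomal pseudogenes the share was 25.3%, and over those up to 1 kb it was 20.0%. Against the 8939 pseudogenes of other symbols, at 24.9% (24.0 to 25.8), the intervals do not overlap. Limited to spans of up to 1 kb, 99 of 265 Rpl and Rps pseudogenes (37.4%; 31.5 to 43.5) and 926 of 4851 others (19.1%; 18.0 to 20.2) had a peak. The same pseudogenes of up to 1 kb were also split by place. Outside protein-coding spans 59 of 194 Rpl and Rps pseudogenes had a peak (30.4%; 24.0 to 37.4), against 17.2% (16.0 to 18.5) of 3657 others. On protein-coding spans the shares were 56.3% (44.0 to 68.1) of 71 Rpl and Rps pseudogenes and 24.9% (22.4 to 27.4) of 1194 others.

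Strong peaks were found at 21 of 286 pseudogenes, 7.34% (4.60 to 11.0), and at 6.90% of the genes (2.57 to 14.4). The background was 4.37% over all autosomal pseudogenes and 2.83% over those up to 1 kb. A −log10 q of at least 5 was reached at 24 of 286 (8.39%; 5.45 to 12.2), against backgrounds of 4.99% and 3.17%. The median of the highest fold was 3.81 at the pseudogenes and 3.42 at the genes. It was 3.62 at the pseudogenes of other symbols with a peak, and 3.48 at those of them up to 1 kb.

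**Figure D4:**
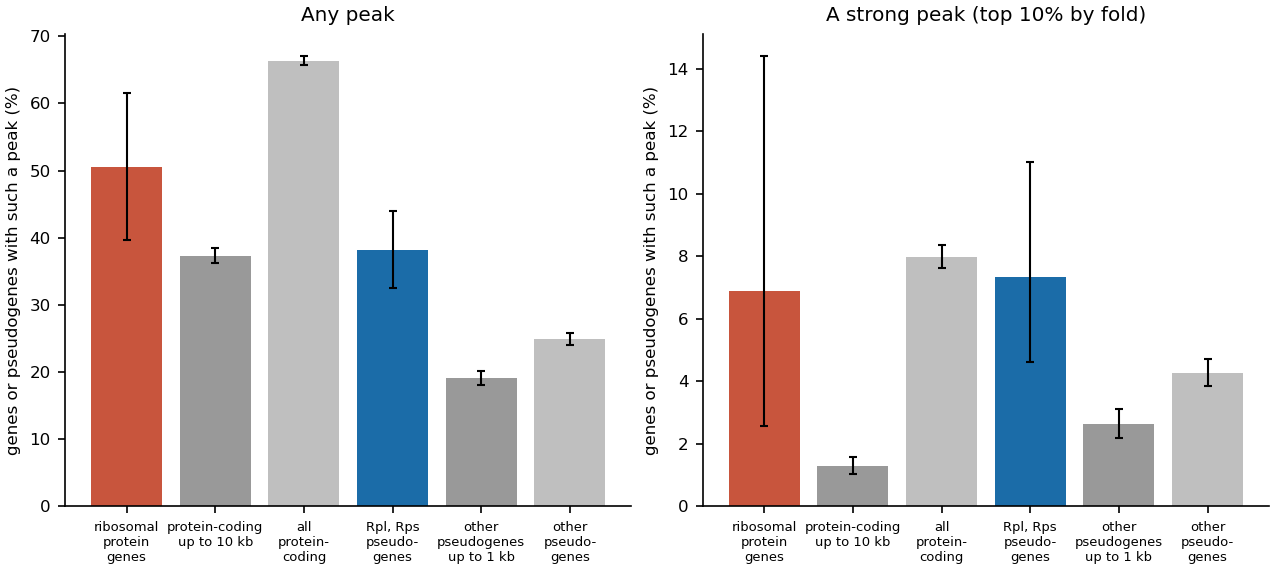
Share (%) of genes or pseudogenes with any peak (left) and with a strong peak (right), counted over the span and 1 kb on each side; bars start at 0 and lines are exact 95% intervals. Ribosomal protein genes (red) are at 50.6% and 6.90%, their pseudogenes (blue) at 38.1% and 7.34%, and the grey bars are the remaining genes and pseudogenes.

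Most of these peaks lay on the pseudogenes themselves. Of the 109 with a peak, 100 had one over part of the span, with a median of 69.8% of it covered; 33 were more than 90% covered and 17 wholly. The median was 66.0% over the 657 other pseudogenes up to 1 kb with a peak in the span. Cover this high was thus close to that of short pseudogenes in general. The counts over 90% and wholly covered were not made for other pseudogenes. Limited to spans of up to 1 kb, 90 of 99 Rpl and Rps pseudogenes with a peak had one in the span. Among the others of that length, 657 of 926 did. Mean coverage over the Rpl and Rps pseudogenes up to 1 kb was 25.7% in the middle part. It was 4.79% and 5.77% in the outermost 250 bp of the flanks. In other pseudogenes up to 1 kb the middle part was at 9.23%. Both ends of the peak lay within 200 bp of the span for 50 of 90 peaks (55.6%; 44.7 to 66.0), against 46.3% (42.4 to 50.2) in the others.

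Rpl14-ps1, within Trpm4 on chromosome 7, had the highest fold among the pseudogenes, 11.9, from 45324853 to 45325577, over 89.3% of a span of 694 bp. Its parent Rpl14 was at 5.08. Rpsa-ps10 on chromosome 3 had 10.4 and was 96.6% covered, near its parent Rpsa at 12.2. Rpl31-ps25, with an annotated span of 41903 bp, had 8.92, Rpl19-ps11 had 8.68 and Rplp2-ps1 had 8.67. Rps6-ps4 had 8.05 and Rpl19-ps1 7.77, and Rpl31-ps8 and Rps19-ps6 shared 7.437. The parents Rplp2 and Rps6 had no peak.

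The pseudogenes were similar in share whether or not the parent gene had a peak. A peak was found at 56 of 145 pseudogenes of parents with one (38.6%; 30.7 to 47.1) and at 46 of 124 pseudogenes of parents without (37.1%; 28.6 to 46.2). The families differed in number. Of the 11 Rpl19 pseudogenes 8 had a peak, as had 5 of 8 for Rps12, 6 of 12 for Rpsa and 6 of 23 for Rpl31. Among the 14 Rpl21 pseudogenes 2 had one, and among the 5 each of Rpl13 and Rpl29 none had. Members of a family share sequence, so the limit on reads with several matches holds here too.

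**Figure D5:**
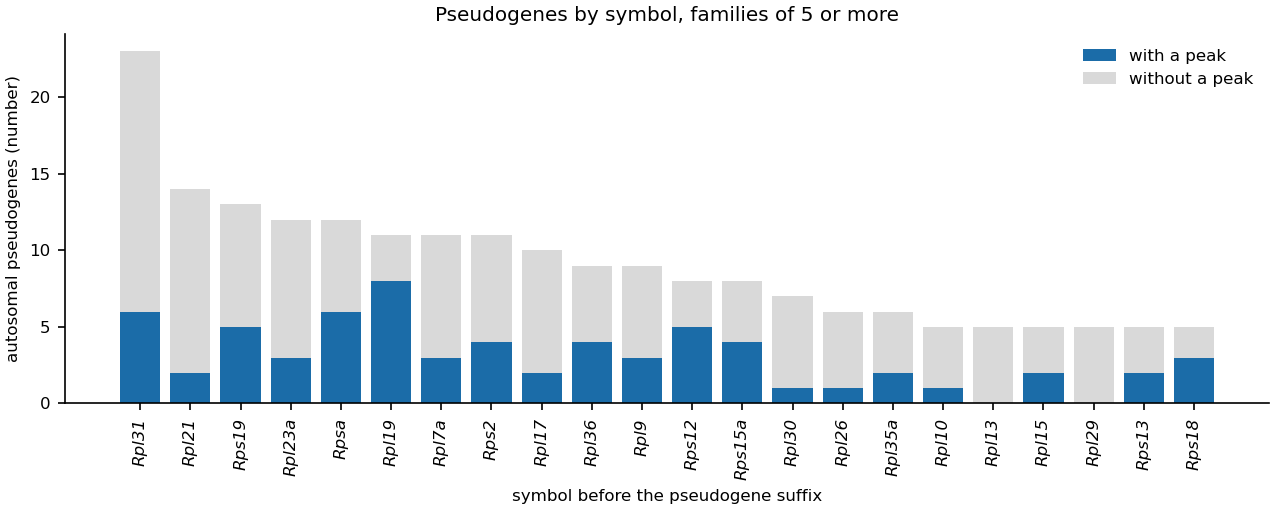
Autosomal pseudogenes (number) by the symbol before the pseudogene suffix, for 22 symbols with 5 or more, split into those with a peak (blue) and without (grey). Rpl31 has the most pseudogenes, 23 with 6 under a peak, and Rpl19 has 8 of 11.

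Other genes of translation also had peaks, and their shares stand beside 66.4% with any peak and 7.98% with a strong one over all autosomal protein-coding genes. Of the 78 genes of mitochondrial ribosomal proteins, which have a median span of 7.69 kb, 44 had a peak (56.4%; 44.7 to 67.6) and 0 had a strong one (0%; 0 to 4.62), with Mrpl43 the highest at 4.98, followed by Mrps2 at 4.93. Among 53 genes whose symbol starts with Eif and a digit, 42 had a peak (79.2%; 65.9 to 89.2) and 0 a strong one. The genes were taken by symbol, so not all of them encode initiation factors. Eif5b was the highest at 5.42, followed by Eif2ak4 at 5.14, and the median span was 17.8 kb. All 7 elongation factor genes had a peak, and 2 had a strong one, Eef1a1 at 10.3 and Eef2 at 8.28. In the ribosome assembly list 19 of 24 genes had a peak (79.2%; 57.8 to 92.9), and the 2 with a strong one were Ncl, which encodes nucleolin, at 8.30 and Polr1a, of RNA polymerase I, at 8.19. Span differs between these lists, and its part in their shares was not tested.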

How the data were processed

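Per the submitters' processing notes, build mm10 was used with MACS2 2.1.0, Bowtie2 2.5.0, deepTools 3.5.1, SAMtools 1.16.1, bedtools 2.27.1 and Trim Galore. What each did, the control of the peak caller and the handling of reads with several matches are not stated. The authors called 1 list of broad peaks on the captured library and deposited a fold enrichment (a ratio) for each peak. Each peak also has the −log10 of its p and q as the authors deposited them, the lowest −log10 q being 1.01. The deposited score of each peak, made by the authors' caller, was not used. No counts are in the list, so depth is unknown.

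Gene spans and types came from a RefSeq table of GRCm38.p6. Genes starting in the opening 3 Mb of a chromosome, where the assembly is a gap, were left out, which removed 0 members. A gene had a peak when at least 1 bp of a peak overlapped its span with 1 kb on each side. Overlaps were computed with Python 3.11.15, pandas 2.3.3 and scipy 1.17.1, and the code was checked on simulated intervals. No test was run. The rule was to name all members, with position and width for the 12 highest folds, the 8 pseudogenes with the highest folds, ties included, and the 2 highest genes of each other list; some members are not reported here, though they are in the counts. The members and lists were chosen with earlier results of these data known. The limits of span of 10 kb and 1 kb, the split of pseudogenes by place and the promoter motifs were added after seeing the data.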

Additional observations from a re-analysis of the deposited data

How the results depend on the processing

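The share of ribosomal protein genes with a peak followed the threshold of the list: it was 14.9% at a −log10 q of at least 3, 6.90% at 5 or more, and 66.7% with a flank of 5 kb. Over the pseudogenes it was 14.7%, 8.39% and 58.7% in the same settings. The difference between genes and pseudogenes, 12.5 percentage points, was 0.257 at a −log10 q of at least 3 and turned to -1.50 at 5 or more; the cause was not tested. The median highest fold was 5.08 and 7.59 at these thresholds, since weak peaks leave by construction. The gene span alone, merging of peaks within 1 kb and the peak midpoint kept these values within their intervals. So did leaving out the paralogues and Rps19bp1, for all but the pseudogene share, which this does not touch. Counting members that share a peak once could change nothing, since no members shared a peak. The share with a strong peak lay between 6.85% and 6.90% in every alternative run, ranking by −log10 q included. The thresholds of −log10 q could not change it, since every member with a strong peak had a −log10 q of at least 5. No paired analysis was possible because there is 1 library. Unknown depth limits what the lack of a call can show.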

Other observations

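The X-linked genes Rpl10, Rpl36a, Rpl39 and Rps4x had 0 peaks within 1 kb. Fau, which makes a small-subunit protein as a fusion and has a symbol outside the rule, had none.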
